A study of Homo sapiens with 4 samples.

Results

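The genes described here are the BCL2 family and the caspases, with the receptors, adaptor and inhibitors that control them. The 34 members were taken from a list of symbols, and a probe was assigned to a member where its RefSeq accession mapped to that symbol. All 34 had a probe that could be tested, out of 23484 entries tested in all, of which 16582 were genes named through RefSeq and 6902 were transcripts known only by an accession. Shares given for all genes cover all 23484 entries. The study compared SAS cells, a line of human tongue squamous carcinoma, in which MTDH (also called LYRIC or AEG-1) was knocked down with control SAS cells. The knockdown cells (SB) carried the lentiviral pLKO.1-LYRIC shRNA-B vector and the control cells (SCt) carried a pLKO.1 vector, which the labels call the vector and the paper a scrambled control. Both lines had been through 14 days of puromycin (2 µg/ml), which stayed in the medium, and were kept as stable clones. RNA of both cell lines, 15 µg for each labelling, was hybridized together on 4 two-colour arrays, with SB always in the red dye and SCt always in the green.

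Apoptosis through mitochondria is governed by a balance within the BCL2 family. Anti-apoptotic members hold back the effectors that permeabilize the outer mitochondrial membrane, and BH3-only proteins release or activate those effectors, after which cytochrome c assembles the apoptosome and initiator caspases cleave executioners. Death receptors at the cell surface reach the same executioners through an adaptor and caspase-8, and carcinoma cells commonly resist death by shifting this balance.

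The design limits what the ratios can show. With 0 of the 4 arrays dye-swapped, an effect of the dye on a probe and a difference between the cells cannot be told apart. The 4 arrays lay on 1 slide, and the replicates were labelled biological, although whether each came from a separate culture was not stated, so p-values cover only the spread between these samples. One knockdown line and one control line were compared, so a difference between clones and an effect of the shRNA cannot be told apart. On bulk RNA, fewer cells with a transcript and less of it per cell cannot be told apart either.

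Between 84.7% and 90.3% of spots were well above background on each array and channel, and 0 spots were saturated. Array 4 stood apart from array 1. Across probes, which are not independent replicates, the log2 ratios of arrays 1 and 4 had a Pearson r of 0.0265, whereas the other pairs ranged from 0.313 to 0.448. Calls are therefore given with and without single arrays, and uncalled means that move with 1 array are counted below. The labelled cell type was checked with 9 squamous epithelial markers, each of which exceeded background in SB and in SCt on every array, and 0 of the 9 differed between the cells at an adjusted p under 0.05. Probes for leukocyte markers (5 of 5) and endothelial markers (3 of 3) were also above background, as were 3 of 5 for fibroblasts and 1 of 2 for muscle. Being above background on these arrays therefore did not by itself show that a gene was expressed.

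The knockdown was read from MTDH itself. Its log2 ratio of SB over SCt was -3.18 on array 1, -3.01 on array 2, -3.11 on array 3 and -3.41 on array 4. All 4 arrays were far below 0. The mean fell by 3.18 ± 0.17 (SD, n = 4 arrays; limma, Benjamini-Hochberg adjusted p = 3.97e-10), 9.04-fold lower in SB. MMP1, a secreted collagenase used as a second reference, fell by 1.65 ± 0.33 on the log2 scale (limma adjusted p = 5.07e-06).

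Among the members, 3 of 34 passed an adjusted p of 0.05 in limma, and all 3 were lower in SB: the BH3-only genes BIK and PMAIP1 and the effector BAK1. Of all genes tested, 3.37% passed in either direction, 2.33% as lower and 1.04% as higher, against 8.82% of the members. Over the named genes alone, 4.14% passed, 3.05% as lower and 1.09% as higher. No test of the difference between these shares was made. None of the members changed by the 2.5-fold limit that the study's methods used. The median log2 ratio of the members was 0.0185, beside 0.00978 for all genes, with 18 members above 0 and 16 below. At an unadjusted p under 0.05 there were 9 members (26.5%) and 17.6% of all genes (19.5% of the named genes). The members kept one sign on all 4 arrays in 15 cases, 6 lower and 9 higher, which is 44.1% of them beside 25.3% of all genes and 27.4% of the named genes. The split between higher and lower depended on how arrays were scaled. With median centring in place of loess, 10 members passed, 8 higher and 2 lower. Of 28505 probes 8937 then passed, 5599 higher and 3338 lower.

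**Figure D1:**
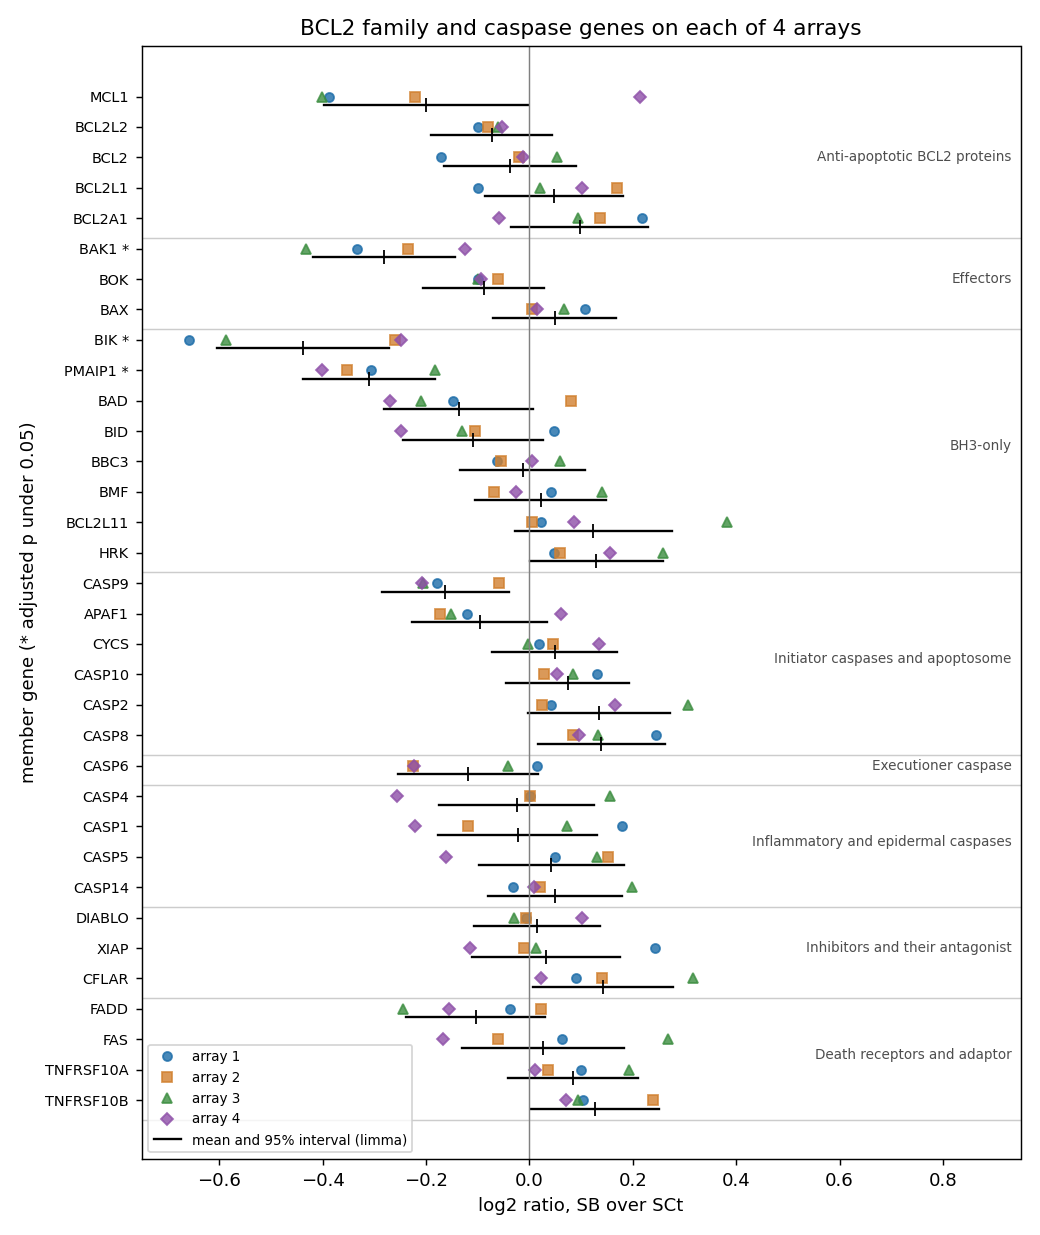
Log2 ratio of SB over SCt for each of the 34 members (rows, grouped by role) on each of the 4 arrays (coloured symbols), with the mean and its 95% interval from limma as a black bar. BIK, PMAIP1 and BAK1, marked with an asterisk, lie below 0 on all 4 arrays, and most other members lie on both sides of 0 or close to it.

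The calls depended on single arrays. Without array 4 there were 4 called members, BAK1, BIK, PMAIP1 and MCL1, beside 1835 of 28499 probes. Without array 1 or array 2 there was 1, BIK, beside 588 of 28872 and 405 of 28822 probes. Without array 3 there were 0 (4 at an unadjusted p under 0.05), beside 173 of 28460 probes. BAK1 lost its call without array 1, 2 or 3 at log2 ratios of -0.26, -0.30 and -0.23, beside -0.28 with all 4 arrays. By the methods' t-test, adjusted over all probes, 0 members passed (9 at an unadjusted p under 0.05), and so did 0 of all probes.

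The anti-apoptotic proteins bind and restrain the effectors, and 0 of these 5 members passed the test (limma, 1 at an unadjusted p under 0.05). Their median log2 ratio was -0.04 under loess. MCL1, a short-lived protein of this class, had log2 ratios of -0.39, -0.22, -0.40 and 0.21 on arrays 1 to 4. It was low on arrays 1 to 3 and high on array 4. Its mean was -0.20 ± 0.29 (SD, n = 4, limma adjusted p = 0.270), and without array 4 it was -0.34 with an adjusted p of 0.00227. Without array 1 it was -0.14 and without array 3 -0.13 (adjusted p = 0.528 and 0.674). With median centring it was -0.05 (adjusted p = 0.648). BCL2, the founding member, gave -0.17, -0.02, 0.05 and -0.01, near 0 on arrays 2 to 4. Its mean was -0.04 ± 0.09, with a 95% interval from -0.17 to 0.09. BCL2L1 (BCL-XL) had a mean of 0.05, BCL2L2 (BCL-W) of -0.07 and BCL2A1 of 0.10. With median centring BCL2 was at 0.14, BCL2L2 at 0.17, BCL2L1 at 0.14 and BCL2A1 at 0.14. BCL2 and BCL2L2 thus changed sign with the scaling, and none of the 5 passed there.

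The effectors form pores in the outer mitochondrial membrane, and 1 of the 3 fell, beside 2.33% of all genes called lower. BAK1, an effector resident in that membrane, had log2 ratios of -0.33, -0.24, -0.43 and -0.12 on the 4 arrays. It was below 0 on each, lowest on array 3 and nearest 0 on array 4. BAK1 fell by 0.28 ± 0.13 on the log2 scale (limma adjusted p = 0.0324), 1.22-fold lower in SB. With the scanner software's own ratios it was -0.30 (adjusted p = 0.0614), with median centring -0.14 (adjusted p = 0.118), and 8 of 16 other settings did not call it. BAX, the effector that moves to mitochondria from the cytosol, gave 0.11, 0.01, 0.07 and 0.01. On this probe they were small and all above 0, with a mean of 0.05 ± 0.05 and a 95% interval from -0.07 to 0.17. BOK, a further relative, had a mean of -0.09 and was below 0 on all 4 arrays under loess. With median centring it was at 0.09 (adjusted p = 0.263).

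BH3-only proteins relay death signals to the rest of the family. Of 8 such members 2 fell and 0 rose, beside 2.33% of all genes called lower and 1.04% higher. The median of the 8 was -0.06. BIK, which acts at the endoplasmic reticulum, had log2 ratios of -0.66, -0.26, -0.59 and -0.25. It was below 0 on each array, lowest on arrays 1 and 3. BIK fell by 0.44 ± 0.21 (limma adjusted p = 0.00957), 1.35-fold lower in SB, and 0.439% of all genes had a lower mean. Without array 3 its mean was -0.39 and its adjusted p was 0.130. PMAIP1 (NOXA), which binds chiefly MCL1, had log2 ratios of -0.31, -0.35, -0.18 and -0.40. It was below 0 on each array and nearest 0 on array 3. PMAIP1 fell by 0.31 ± 0.09 (limma adjusted p = 0.0140), 1.24-fold lower in SB. Without array 1 it was -0.31 (adjusted p = 0.0505), without array 2 -0.30 (adjusted p = 0.0861) and without array 3 -0.35 (adjusted p = 0.0518), so the call was lost while the ratio stayed within its SD. With median centring it was -0.20 (adjusted p = 0.0339), a smaller fall by more than that SD.

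**Figure D2:**
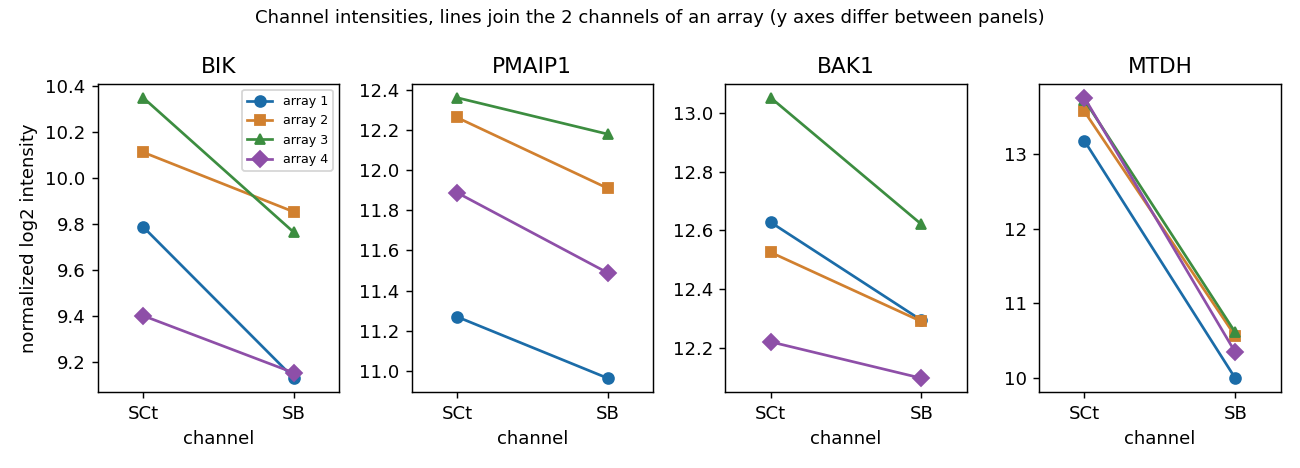
Normalized log2 intensity in the SCt and SB channels for BIK, PMAIP1, BAK1 and MTDH, each line joining the 2 channels of 1 array, with a y axis of its own in each panel. Every line falls from SCt to SB, by far the most for MTDH.

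The exact sign-flip test over the 4 arrays (two-sided) gave p = 0.125 for BIK, PMAIP1 and BAK1, the smallest p that 4 arrays allow. Any gene with the same sign on all 4 arrays gets this p, as did the uncalled BAX, CASP9, CFLAR and TNFRSF10B. It therefore does not set the called members apart. BBC3 (PUMA), a p53-induced BH3-only protein, gave -0.06, -0.05, 0.06 and 0.01. Those values lay on both sides of 0 with a mean of -0.01 ± 0.06 (limma adjusted p = 0.931), and with median centring the value was 0.24 (adjusted p = 0.0172). Of the remaining BH3-only members BAD was at -0.14, BID at -0.11, BMF at 0.02, BCL2L11 (BIM) at 0.12 and HRK at 0.13, and none passed under loess, while HRK passed with median centring at 0.25. The value of BCL2L11 was highest on array 3 (0.38), and without that array the mean was 0.04.

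**Figure D3:**
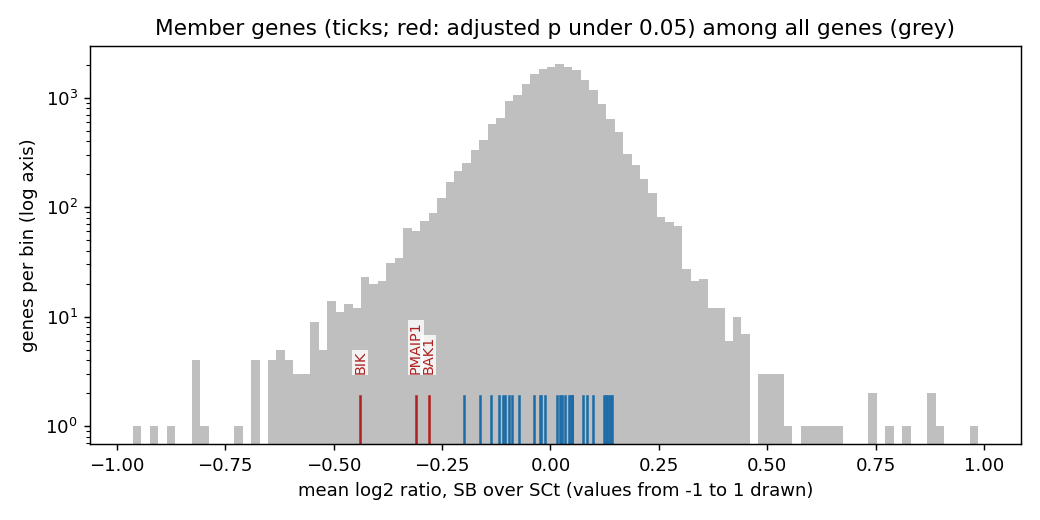
Mean log2 ratio of SB over SCt of all genes (grey histogram, genes per bin on a log axis, values from -1 to 1 drawn), with members as ticks. BIK at -0.44, PMAIP1 at -0.31 and BAK1 at -0.28, in red, lie in the lower tail, and the other 31 members, in blue, lie between -0.20 and 0.14.

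PMAIP1 and BAK1 are shown with their promoters because they fell, and BAX as 1 of the 2 effectors that did not pass. The sequences are from RefSeq (GRCh38.p14), 250 bases before to 50 after the start, and 27 of 34 members had one. BIK was not among them. Capitals mark matches on either strand to the GC box GGGCGG, the CCAAT box, the TATA box TATAAA, the cAMP response element TGACGTCA, the AP-1 motif TGANTCA, the NF-kB consensus or a p53 half-site.
PMAIP1: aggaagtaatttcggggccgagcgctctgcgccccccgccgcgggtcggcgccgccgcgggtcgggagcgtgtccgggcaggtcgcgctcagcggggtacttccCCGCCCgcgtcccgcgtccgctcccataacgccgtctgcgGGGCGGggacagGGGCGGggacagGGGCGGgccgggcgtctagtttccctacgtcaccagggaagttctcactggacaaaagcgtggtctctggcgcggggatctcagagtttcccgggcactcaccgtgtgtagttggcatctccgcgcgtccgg
BAK1: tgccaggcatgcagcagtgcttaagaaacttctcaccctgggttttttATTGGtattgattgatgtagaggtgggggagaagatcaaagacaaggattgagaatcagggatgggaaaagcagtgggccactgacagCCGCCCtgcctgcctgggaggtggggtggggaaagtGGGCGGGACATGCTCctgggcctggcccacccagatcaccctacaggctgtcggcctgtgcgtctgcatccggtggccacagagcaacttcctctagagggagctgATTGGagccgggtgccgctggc
BAX: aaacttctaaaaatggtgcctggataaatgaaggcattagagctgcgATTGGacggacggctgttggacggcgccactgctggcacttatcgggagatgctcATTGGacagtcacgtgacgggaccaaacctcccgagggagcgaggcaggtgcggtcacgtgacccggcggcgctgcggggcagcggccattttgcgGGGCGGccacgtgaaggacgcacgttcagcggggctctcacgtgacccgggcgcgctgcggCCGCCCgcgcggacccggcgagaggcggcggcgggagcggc
The PMAIP1 sequence is chr18:59899746-59900045 on the plus strand and held 4 GC boxes and no match to the other motifs. The BAK1 sequence is chr6:33580227-33580526 on the minus strand and held 2 GC boxes, 2 CCAAT boxes and 1 p53 half-site, which overlapped a GC box. The BAX sequence is chr19:48954625-48954924 on the plus strand and held 2 GC boxes and 2 CCAAT boxes. Of 35116 promoters, 45.0% held the GC box, 34.6% the CCAAT box, 11.5% the TATA box, 1.85% the cAMP response element, 7.71% the AP-1 motif, 11.3% the NF-kB consensus and 6.63% the p53 half-site. A match is a run of letters and was not tested for binding.

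Initiator caspases start the cascade on platforms such as the apoptosome. This group held the initiator caspases with APAF1 and CYCS of the apoptosome. Of its 6 members 0 passed under loess (limma, 2 at an unadjusted p under 0.05). With median centring 4 passed as higher, CASP10 at 0.30, CYCS at 0.23, CASP2 at 0.23 and CASP8 at 0.20. Under that setting 5599 of 28505 probes passed as higher. CASP9, the initiator recruited by APAF1, gave -0.18, -0.06, -0.21 and -0.21. It was below 0 on all 4 arrays and nearest 0 on array 2. Its mean was -0.16 ± 0.07 (limma adjusted p = 0.147), with a 95% interval from -0.29 to -0.04. CYCS, the cytochrome c of the apoptosome, gave 0.02, 0.05, -0.0029 and 0.13. It was highest on array 4, with a mean of 0.05 ± 0.06. CASP8, the initiator of the receptor route, had a mean of 0.14 (adjusted p = 0.214), CASP10 of 0.07, CASP2 of 0.13 and APAF1 of -0.10.

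CASP6, the executioner known for cleaving lamins, gave 0.01, -0.23, -0.04 and -0.22. It was low on arrays 2 and 4 only. Its mean was -0.12 ± 0.12 (limma adjusted p = 0.343). The inflammatory caspases CASP1, CASP4 and CASP5 and the epidermal CASP14 had means between -0.02 and 0.05, and 0 of 4 passed (0 at an unadjusted p under 0.05). CASP1, which matures interleukin-1 beta, gave 0.18, -0.12, 0.07 and -0.22, on both sides of 0. CASP14, active in cornifying epidermis, gave -0.03, 0.02, 0.20 and 0.01, and was highest on array 3.

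XIAP blocks caspases directly, CFLAR blocks caspase-8 at the receptor, and DIABLO (SMAC) antagonizes XIAP. Of these 3, 0 passed (1 at an unadjusted p under 0.05). CFLAR gave 0.09, 0.14, 0.32 and 0.02, above 0 on all 4 arrays. Its mean was 0.14 ± 0.13 (limma adjusted p = 0.252). DIABLO gave -0.01, -0.01, -0.03 and 0.10, and XIAP had a mean of 0.03.

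Of the receptors and their adaptor 0 of 4 passed under loess (1 at an unadjusted p under 0.05). With median centring TNFRSF10A at 0.24 and TNFRSF10B at 0.23 passed, beside 8937 of 28505 probes. TNFRSF10B (DR5), a receptor of TRAIL, gave 0.10, 0.24, 0.09 and 0.07, above 0 on all 4 arrays and highest on array 2. Its mean was 0.13 ± 0.08 (limma adjusted p = 0.262), and TNFRSF10A (DR4) had a mean of 0.08. FAS gave 0.06, -0.06, 0.27 and -0.17, on both sides of 0. FADD, the adaptor that recruits caspase-8, had a mean of -0.10.

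For the 31 members that did not pass, the 95% intervals bound the mean under loess and the spread of these 4 arrays. Their half-widths ran from 0.12 to 0.20 on the log2 scale, and 25 intervals spanned 0. The widest bound was 0.40, for MCL1, a 1.32-fold difference. With median centring 9 of the 31 lay above their own interval, such as CASP10 at 0.30, TNFRSF10A at 0.24 and BBC3 at 0.24. Leaving out 1 array moved the mean of 23 of the 31 by over 1.5 times or across 0, and 9 of them crossed 0. XIAP was -0.04 without array 1 and DIABLO -0.01 without array 4, and without array 3 CFLAR was 0.08 and CASP2 0.08. Grouped by known regulator, 0 of 7 NF-kB targets passed (limma, 2 at an unadjusted p under 0.05), with a median of 0.05 and 14.3% of them below 0. Of 9 p53 targets 1 fell (PMAIP1), with a median of -0.01 and 55.6% below 0. Of all genes 3.37% passed and 45.9% were below 0 (4.14% and 49.98% of the named genes), and no difference from these shares was tested.

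Several probes read some members. Of 12 members with more than 1 probe, 11 had more than 1 kept, and in 3 of these the kept probes differed in sign. The FAS probes had mean log2 ratios of 0.03, -0.09 and -0.21, the last with a limma adjusted p of 0.0697. CASP10 probes ran from -0.14 to 0.09 and CYCS probes from -0.01 to 0.05. The CASP10 probe at -0.14 was dim, with a mean log2 intensity of 6.71, under the lower quartile of all probes (7.17). The CASP10 probe used to read the gene lay at 14.1. The other BAX probe gave 0.14, 0.05, -0.06 and -0.05, on both sides of 0, with a mean of 0.02. Both BCL2 probes were below 0, at -0.04 and -0.12, but they were annotated to different transcripts of the gene. The probe at -0.12 was also dim, with a mean log2 intensity of 6.74 beside 13.4 for the probe at -0.04. BIK, PMAIP1 and BAK1 had 1 probe each, so no further probe bears on their values.

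Other genes of the pathway were taken from lists of 69 genes, of which 60 could be tested. Of these 1 rose and 2 fell, 5% of the list beside 3.37% of all genes, with a median of -0.02. At an unadjusted p under 0.05 there were 8 (13.3%), beside 17.6% of all genes. The direction depended on the scaling. With median centring 14 of the 60 passed, 14 higher and 0 lower, beside 8937 of 28505 probes, 5599 higher and 3338 lower. BIRC2 and TNFRSF25 did not pass under that setting, and TNFRSF21 was at 0.59. TNFRSF21 (DR6), a death-domain receptor, had log2 ratios of 0.41, 0.31, 0.11 and 0.32 and rose by 0.29 ± 0.13 (limma adjusted p = 0.0287). BIRC2 (cIAP1), a ubiquitin ligase of the receptor route, had -0.21, -0.33, -0.29 and -0.12 and fell by 0.24 ± 0.09 (limma adjusted p = 0.0472). TNFRSF25 (DR3) had -0.27, -0.12, -0.26 and -0.28 and fell by 0.23 ± 0.07 (limma adjusted p = 0.0463), but the mean over its probes was -0.08 (adjusted p = 0.484). Of 16 other settings, TNFRSF21 kept its call in 9, BIRC2 in 6 and TNFRSF25 in 5. Without array 1, 2 or 3, 0 of the pathway genes passed, and without array 4 BIRC2 and TNFRSF21 did. Their ratios stayed of like size when array 1, 2 or 3 was left out, at 0.25, 0.28 and 0.35 for TNFRSF21, -0.25, -0.21 and -0.22 for BIRC2 and -0.22, -0.27 and -0.22 for TNFRSF25. Of 7 tested inflammasome genes 0 passed (limma, 0 at an unadjusted p under 0.05).

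**Figure D4:**
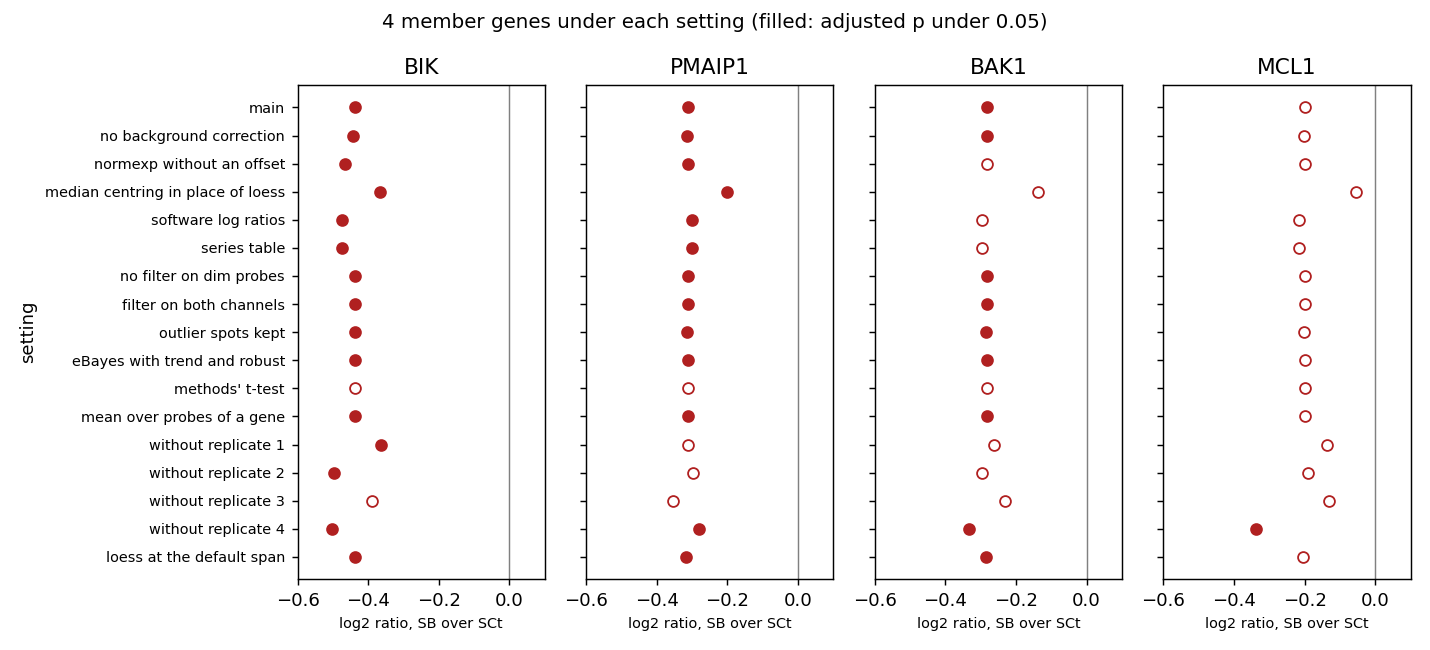
Log2 ratio of SB over SCt for BIK, PMAIP1, BAK1 and MCL1 under each processing setting (rows), filled where the adjusted p was under 0.05. All values lie below 0, BIK is filled in the most settings, and MCL1 is filled only without replicate 4.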

How the data were processed

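The members and gene lists were chosen with earlier results of these data known. Per the file headers, the authors' scanner software (Agilent Feature Extraction 10.5.1.1) gave median spot and background intensity values and a log10 ratio of SB over SCt, and the deposited series table holds log2 ratios. From the median intensities, limma 3.58.1 in R 4.3.3 was used for normexp correction with an offset of 50, loess within arrays, averaging of a probe's spots without outlier spots, and a fit of the mean log2 ratio against 0 with eBayes and Benjamini-Hochberg adjustment over 28505 of 34127 probes. A probe was kept if SB, or else SCt, was flagged well above background by the software on each of the 4 arrays, and if at least 2 arrays gave a value. A gene was read by its brightest kept probe, named through RefSeq accessions (24826 probes matched).

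The loess span was changed after results at limma's default span of 0.3 had been seen. The brightest probes' ratios in the real arrays had also been seen. On simulated data the default span gave too many false calls among the brightest probes and a span of 0.05 fewer. The simulated dye curves were taken from the real arrays, so the test assumes that the ratio common to the brightest probes is dye bias and does not show it. In the real arrays, of 165 probes with a mean log2 intensity over 16, 57 were called higher and 0 lower at the default span, and 12 higher and 1 lower at 0.05. Whether those ratios came from the dye or the cells cannot be told apart. 0 members were among them, the brightest member lying at 14.5.

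Genes named were MTDH, MMP1, members past the threshold, in each role the mean farthest from 0 and the mean nearest 0, and pathway genes past the threshold (at most 3 a direction). Other members are given by their means. Alternatives changed background correction, normalization, the filter on dim probes, outlier spots, the variance model, the test, the probe per gene and the arrays used, and the default span was added after seeing the data.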

Additional observations from a re-analysis of the deposited data

Results flagged for a closer look

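Of 39 genes examined for 1 array far from the other 3, 1 was marked, and chance marks about 1 in 20 (5%). TNFRSF25 had a log2 ratio of -0.12 on array 2, and the other 3 arrays lay between -0.28 and -0.26. Without array 2 the mean was -0.27 with a limma adjusted p of 0.101, beside -0.23 and 0.0463 with all 4 arrays.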

How the results depend on the processing

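The main fit called 1010 probes (312 higher, 698 lower). Median centring gave 8937 probes, 10 members, a member median of 0.14 (all genes 0.07) and 14 pathway genes, all 14 higher. The methods' t-test gave 0 probes (3830 at an unadjusted p under 0.05), 0 members and 0 pathway genes, and left MTDH at -3.18 with an adjusted p of 0.127. Leaving out 1 array gave 173 probes (without array 3) to 1835 (without array 4), 0 to 4 members, member medians from -0.0271 to 0.0342, 0 to 2 pathway genes and MTDH values from -3.23 to -3.10; it was 588 probes without array 1 and 405 without array 2. Pathway genes called were 0 with normexp without an offset, with the software ratios and with the series table, and 1 with outlier spots kept. With limma's default loess span, chosen as an alternative after seeing the data, 1055 probes (376 higher, 679 lower) and the same 3 members were called. BIK kept its call in 14 of 16 settings, PMAIP1 in 12 and BAK1 in 8, and MTDH in 15.

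Over 20 single genes, 262 values kept their direction and side of the threshold, 43 lost a call, 3 gained one, 11 uncalled values changed sign, and 1 reversed: BBC3, at 0.24 with median centring. The causes were not tested. The number of arrays limits the precision. Each array held both cell lines, so the fit was paired throughout.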
